A study of Homo sapiens with 6 samples.

Results

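The mitochondrial ribosomal protein genes described here were the 78 protein-coding genes, of 58735 genes in the deposited expression table, whose symbol starts with MRPL or MRPS followed by a digit. By symbol, 49 belonged to the large subunit (MRPL) and 29 to the small subunit (MRPS) of the mitochondrial ribosome. Messenger RNA was sequenced from HEK293, a human cell line derived from embryonic kidney, in lines stably expressing a form of the focal adhesion protein tensin 2 (TNS2) with 1 tyrosine changed. In the Y483E line (3 libraries) that residue was glutamate, which resembles a phosphorylated tyrosine in charge, and in the Y483F line (3 libraries) it was phenylalanine, which cannot be phosphorylated there. Both groups therefore carried an introduced TNS2, and the comparison is between 2 substitutions with no library of unmodified cells among the 6. The labels describe 2 cell lines and do not state whether each is 1 clone or several. They call the libraries biological replicates without stating separate cultures, and the p-values therefore cover the spread among these libraries only, which may be technical. The column names number the libraries 1, 4 and 5 in each line, and the meaning of the numbers is not stated.

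The mitochondrial ribosome translates the few messenger RNAs of the mitochondrial genome, all of which encode subunits of the respiratory chain or of ATP synthase. Its ribosomal RNAs are made inside the organelle, whereas its proteins are encoded in the nucleus, translated in the cytosol and imported. The small subunit holds the messenger RNA and decodes it, and the large subunit forms peptide bonds and releases the chain at the inner membrane. Many of the proteins have bacterial counterparts and others are specific to mitochondria. A few symbols do not match the place of the protein: MRPS30 and MRPS18A lie in the large subunit, and MRPS36 is a component of the 2-oxoglutarate dehydrogenase complex.

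Nuclear genes for mitochondrial proteins often carry short promoter motifs bound by ETS-family factors such as GABPA, by NRF1 and by YY1, so the promoters were searched for these letters. A RefSeq promoter (GRCh38.p14, 250 bases before to 50 bases after the start) was matched by symbol for 69 of the 78 genes, 42 of the large and 27 of the small subunit. The ETS letters CCGGAAG stood on either strand in 29 of the 69 promoters (42.0%), against 10.7% of all 27305 promoters of the table and 14.2% of the 15843 protein-coding ones. The YY1 letters AAGATGGC stood in 20 of the 69, against 3.0% of all promoters and 3.9% of the protein-coding ones. The NRF1 letters CGCATGCG stood in 3 (4.3%), against 2.2% and 2.9% in the same 2 backgrounds. The SP letters GGGCGG stood in 42 (60.9%), against 44.6% and 58.5%. At least 1 of the ETS, NRF1 and YY1 motifs was present in 42 promoters (60.9%), against 19.3% of protein-coding promoters, and 10 (14.5%) held 2 kinds, against 1.7%. The large and small subunits were alike in the first 2 motifs: ETS letters stood in 40.5% of large-subunit and 44.4% of small-subunit promoters, and YY1 letters in 28.6% and 29.6%. No match of ETS, NRF1 or YY1 letters shared bases with another of these 3, and in 1 promoter, that of MRPL53, an ETS match shared bases with an SP match.

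Of 21 YY1 matches, 17 lay on the strand of the gene and 15 (71.4%) began within the first 40 bases of the transcript, against 59.8% of matches in protein-coding promoters. Of 39 ETS matches, 28 (71.8%) began between 60 bases before and 10 bases after the start, against 51.7%. These position windows were chosen after the matches had been seen. A match is a run of letters and was not tested for binding.

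The promoters of 6 genes are printed as the 150 bases from 120 before to 30 after the start, 5′ to 3′ on the strand of the gene, with ETS, NRF1 and YY1 letters on either strand in capitals. MRPS34 (chr16:1773105-1773254, minus strand) was the gene with the highest level and held 3 ETS matches. MRPL20 (chr1:1407264-1407413, minus strand) and MRPL51 (chr12:6493233-6493382, minus strand) each joined 2 ETS matches upstream to a YY1 match just after the start. MRPL52 (chr14:22829767-22829916, plus strand) held 2 YY1 matches upstream and an ETS match at the start. MRPL17 (chr11:6683311-6683460, minus strand) held 2 NRF1 matches. MRPS6 (chr21:34073458-34073607, plus strand), which had the smallest p-value between the lines, held none of these 3 motifs and 9 SP matches in its whole promoter.
MRPS34: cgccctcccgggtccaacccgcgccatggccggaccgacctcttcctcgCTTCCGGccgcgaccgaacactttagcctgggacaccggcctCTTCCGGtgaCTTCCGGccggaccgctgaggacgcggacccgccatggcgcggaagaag
MRPL20: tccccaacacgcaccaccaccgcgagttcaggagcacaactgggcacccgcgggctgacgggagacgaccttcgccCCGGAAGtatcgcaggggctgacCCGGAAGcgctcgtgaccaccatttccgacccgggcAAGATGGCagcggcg
MRPL51: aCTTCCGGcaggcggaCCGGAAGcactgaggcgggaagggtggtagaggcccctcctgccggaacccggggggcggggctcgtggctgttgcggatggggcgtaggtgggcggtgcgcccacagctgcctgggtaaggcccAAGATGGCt
MRPL52: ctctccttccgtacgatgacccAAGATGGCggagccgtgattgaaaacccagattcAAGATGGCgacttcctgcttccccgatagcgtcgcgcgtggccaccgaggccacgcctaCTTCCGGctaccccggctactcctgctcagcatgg
MRPL17: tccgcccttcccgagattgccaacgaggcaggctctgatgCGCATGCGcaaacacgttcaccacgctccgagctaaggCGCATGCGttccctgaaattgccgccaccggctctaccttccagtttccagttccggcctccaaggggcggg
MRPS6: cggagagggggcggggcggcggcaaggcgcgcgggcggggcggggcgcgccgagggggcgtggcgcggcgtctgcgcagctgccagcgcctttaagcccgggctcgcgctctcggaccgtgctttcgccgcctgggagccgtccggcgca

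The libraries held 17204498 to 23284592 reads assigned to genes, and the median of these 78 genes was covered by 1151 to 1584 reads per library, depending on the library. The least covered gene, MRPS24, had 5 to 17 reads. Markers of HEK293 were present, with IRS4 at 153 FPKM in Y483E and 165 FPKM in Y483F and NEFL at 45.6 FPKM in Y483E and 39.6 FPKM in Y483F, while the immune markers PTPRC and CD3E, the fibroblast marker COL1A2 and the erythroid marker HBB had 0 reads. TNS2 itself was at 0.948 ± 0.169 FPKM in Y483E and 1.13 ± 0.0534 FPKM in Y483F (SD, n = 3 each; log2 fold change -0.13, limma adjusted p = 0.604). These reads do not separate the introduced from the endogenous transcript, so they do not check the substitutions. Across all genes, limma called 0 of 12833.

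The genes spanned more than 3 orders of magnitude in level, expressed as FPKM, a level per length of exon and per depth of the library. The low end of that span was MRPS24 alone, at 0.18 FPKM. The other 77 genes ran from 1.96 to 279 FPKM. The median of all 78 was 26.5 FPKM over the 6 libraries, with quartiles at 15.2 and 46.3 FPKM. The group medians were 26.1 FPKM in Y483E and 27.3 FPKM in Y483F. Of the 78, 64 were at 10 FPKM or more and 3 at 100 FPKM or more. Together they took 0.608 ± 0.0148% of the reads in Y483E and 0.605 ± 0.0216% in Y483F (SD, n = 3 each), a difference smaller than the spread between libraries. In such bulk libraries, fewer cells expressing a gene and less RNA of it per cell cannot be told apart. The 79 cytosolic ribosomal protein genes had a median of 281 FPKM.

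MRPS34, which is needed for the stability of the small subunit, was the highest. It is encoded at chr16:1771890-1773155 (GRCh38). Its level was 294, 274 and 274 FPKM in Y483E and 289, 272 and 272 FPKM in Y483F. The groups overlapped almost entirely (log2 fold change 0.02 ± 0.05, SE; limma adjusted p = 0.915). MRPS26, a mitochondria-specific small-subunit protein, followed at 116, 110 and 108 FPKM in Y483E and 113, 116 and 118 FPKM in Y483F. MRPL37, a mitochondria-specific large-subunit protein, had 102, 105 and 104 FPKM in Y483E and 106, 98.7 and 97.3 FPKM in Y483F. Levels of both overlapped between the lines, and MRPS26 and MRPL37 stood well apart from MRPS34 in every library. MRPL14 (92.3 FPKM over the 6 libraries), which lies at the face where the subunits join, and MRPL51 (91.4 FPKM) came next in the large subunit and differed from each other by less than their spread. MRPS12, a protein of the decoding centre, was the third of the small subunit at 69.0 FPKM.

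At the low end, MRPS24, the counterpart of a bacterial protein at the messenger RNA entry, had 0.364, 0.181 and 0.104 FPKM in Y483E and 0.179, 0.149 and 0.113 FPKM in Y483F. It was the only one of the 78 under the filter of a mean of 1 FPKM and was left out of the main test. With no filter, edgeR estimated a log2 fold change of 0.55 ± 0.53 for it (SE; adjusted p = 0.749). The next lowest were MRPL38 (1.96 FPKM) and MRPL46 (2.53 FPKM), both proteins specific to mitochondria, then MRPL53 (3.48 FPKM), and in the small subunit MRPS17 (4.02 FPKM) and MRPS18C (4.37 FPKM).

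The 3 paralogues descended from bacterial S18 were at different levels. MRPS18B had 63.8, 62.6 and 66.4 FPKM in Y483E and 68.0, 57.7 and 61.1 FPKM in Y483F. MRPS18A, the one placed in the large subunit, had 30.2, 27.5 and 27.9 FPKM in Y483E and 30.7, 25.5 and 28.3 FPKM in Y483F. MRPS18C had 4.64, 4.50 and 4.34 FPKM in Y483E and 4.98, 3.56 and 4.20 FPKM in Y483F. The order B, A, C held in every library without overlap, and none of the 3 passed the test between the lines (limma adjusted p from 0.792 for MRPS18C to 0.933 for MRPS18A). MRPS30 averaged 16.3 ± 0.543 FPKM in Y483E and 16.4 ± 0.883 FPKM in Y483F, and MRPS36 averaged 20.2 ± 0.4997 FPKM in Y483E and 19.2 ± 1.65 FPKM in Y483F (SD, n = 3 each). MRPL58, a peptidyl-tRNA hydrolase built into the large subunit, averaged 39.0 ± 1.39 FPKM in Y483E and 37.3 ± 3.00 FPKM in Y483F (SD, n = 3 each). MRPL12, the stalk protein that recruits translation factors, averaged 52.1 ± 2.14 FPKM in Y483E and 48.7 ± 1.06 FPKM in Y483F (SD, n = 3 each; limma adjusted p = 0.433).

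**Figure D1:**
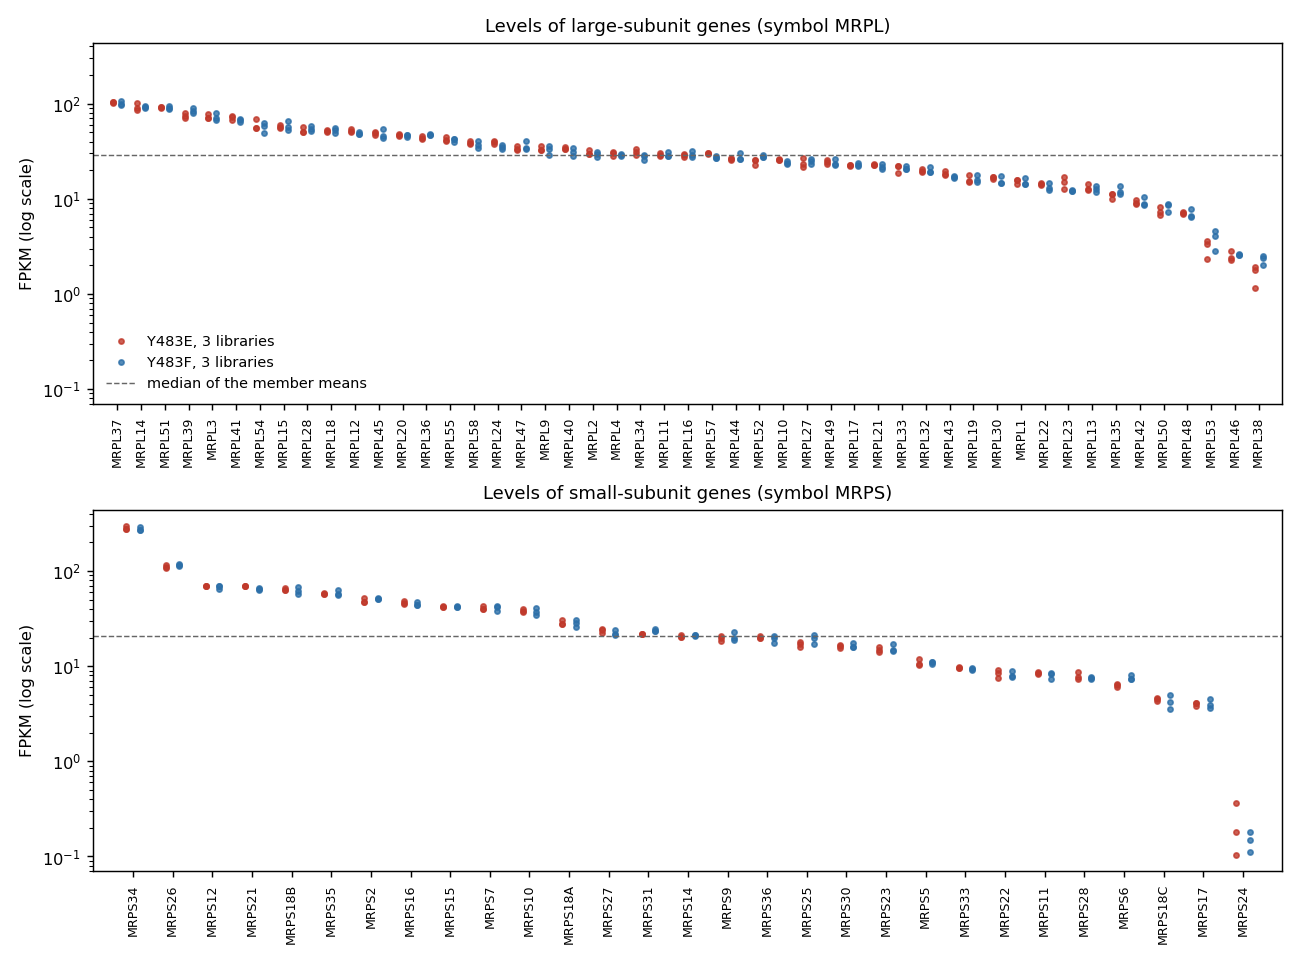
Levels in FPKM on a log scale for the 49 large-subunit genes (top) and 29 small-subunit genes (bottom), ordered by their mean; each point is 1 library, Y483E left of Y483F for each gene, and the dashed line is the median of the gene means (29.03 FPKM large, 20.9 FPKM small). The lines overlapped for most genes, and MRPS34 and MRPS24 stood apart at the ends.

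By symbol, the large subunit had a median of 29.03 FPKM (range 1.96 to 102 FPKM) and the small subunit 20.9 FPKM (range 0.18 to 279 FPKM). Assigned by place in the particle, with MRPS30 and MRPS18A counted as large and MRPS36 left out, the 51 large-subunit genes had a median of 28.6 FPKM and the 26 small-subunit genes 21.8 FPKM. The ratio of the large to the small median was 1.41, 1.39 and 1.34 in the Y483E libraries and 1.25, 1.29 and 1.31 in the Y483F libraries. These values did not overlap, but the ratio of the summed levels did: it averaged 1.51 ± 0.0118 in Y483E and 1.499 ± 0.0269 in Y483F (SD, n = 3 each). By place, the ratio of medians averaged 1.34 ± 0.0321 in Y483E and 1.27 ± 0.0261 in Y483F (SD, n = 3 each). No p is given for these ratios, since they are scores over the genes, and an exact permutation test of 3 libraries against 3 cannot go below 0.10.

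Low levels were more frequent among genes whose exons lie inside those of their neighbours. The deposited length is the union of all annotated exons, and the listed gene coordinates and lengths of all 78 matched GENCODE 29. For 14 of the genes, more than 20% of the main protein-coding transcript lay inside exons of other genes; reads there can be assigned to more than 1 gene, and the labels do not say whether the counting dropped them. These 14 had a median of 7.31 FPKM, against 29.03 FPKM for the other 64. Of the 14 genes under 10 FPKM, 9 were among them. The part of overlap in these levels was not tested.

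MRPS24 had 85.7% of its main transcript inside URGCP-MRPS24, a readthrough gene on the same strand listed at 0.0472 FPKM. MRPS18C had 78.9% inside exons, chiefly of ABRAXAS1 on the opposite strand (0.698 FPKM). MRPL46 had 71.1%, MRPL38 67.8% and MRPL53 52.3%, the last shared with CCDC142 (4.38 FPKM). MRPS17 shared 31.6% with other genes, among them NIPSNAP2 (13.9 FPKM), and MRPS6 shared 31.9% with genes that include the transporter gene SLC5A3 (5.82 FPKM). The other 5 of the 14 were above 10 FPKM: MRPL12 at 50.4 FPKM with 68.2% inside a gene that had 0 reads, MRPL9 at 33.3 FPKM with 46.8%, MRPL4 at 29.4 FPKM with 33.2%, MRPS18A at 28.4 FPKM with 56.9%, and MRPL30 at 16.1 FPKM with 21.7%. The library protocol names both a directional and a non-directional version, so it is not known whether strand was used, and 29 of the 78 genes overlapped an exon on the opposite strand.

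**Figure D2:**
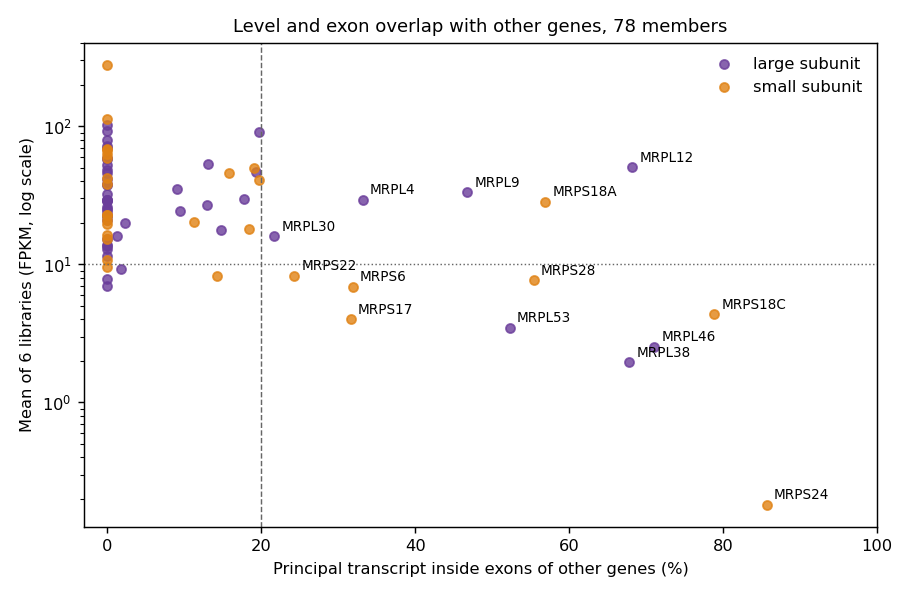
Mean level of each of the 78 genes over the 6 libraries (FPKM, log scale) against the percentage of its main transcript inside exons of other genes, coloured by subunit; the dashed line is at 20% and the dotted line at 10 FPKM. Of the 14 genes right of the dashed line, 9 lie under 10 FPKM, and MRPL12 is the highest of them.

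The length used also moved the order. Computed like FPKM but per kilobase of the main protein-coding transcript instead of all annotated exons, the median of the 78 was 48.1 on this scale, with 50.4 for the large and 34.3 for the small subunit. All reads of each gene were kept, also any outside that transcript, so each value rose by the ratio of the 2 lengths (3.87 for MRPL20). MRPL20 moved from rank 20 to rank 2 (180 on this scale, against 46.5 FPKM), and MRPL27, a protein near the peptidyl transferase centre, from rank 42 to rank 9. MRPS34 stayed first at 299 and MRPS24 last at 0.67 on this scale.

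Within a line the levels were reproducible. The median coefficient of variation over the 77 tested genes was 4.10% in Y483E and 6.38% in Y483F, where counting error alone gives 2.71% and 2.85%. Among genes at 10 to 100 FPKM, the 61 mitochondrial ribosomal protein genes had 4.11% in Y483E and 6.27% in Y483F, against 4.33% and 5.17% for all 4333 tested genes in that range. The steadiest were MRPS21 in Y483E (0.228%) and MRPS15 in Y483F (0.602%), and the most variable were MRPL38 in Y483E (25.4%) and MRPL53 in Y483F (23.8%). Both of these had 58 to 178 reads per library.

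The main comparison asks whether these genes differ between Y483E and Y483F. In limma on log2(FPKM + 1), with Benjamini-Hochberg adjustment over the 12833 genes that averaged 1 FPKM or more, none of the 77 tested genes passed an adjusted p of 0.05, where 0.0% of all genes passed. The smallest adjusted p was 0.262. At an unadjusted p under 0.05 there were 10, with 5 higher and 5 lower in Y483E, so 10 of 77, against 12.2% of all genes tested. In the same fit 45 estimates were above 0 and 32 below, and the median log2 fold change was 0.02, against 0.01 for all genes tested. The large subunit had a median of 0.02 (28 above 0, 21 below) and the small subunit 0.01 (17 above 0, 11 below). On the recovered read counts, edgeR called none of the 77, where it called 0.0438% of 15992 genes, and gave 9 at an unadjusted p under 0.05, where 13.4% of all genes had one. DESeq2 also called none, where it called 0.404% of the 31210 genes with a p-value. Genes without an adjusted p, such as MRPS24, are counted in that total, so the share is a lower bound. Fits that gave the libraries unequal weight or kept the sparsest genes made a few calls. With array weights limma called 9 of the 77 (MRPL57, MRPL24, MRPL40 and MRPL22 higher in Y483E, and MRPS6, MRPS31, MRPS25, MRPL38 and MRPL52 lower), where it called 14.7% of all genes. Without a filter on low counts edgeR called MRPL23 (log2 fold change 0.29, adjusted p = 0.0238), where it called 2.15% of all genes. Without the Y483F library numbered 1 edgeR called MRPS25 (log2 fold change -0.28, adjusted p = 0.0232), where it called 6.1% of all genes.

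**Figure D3:**
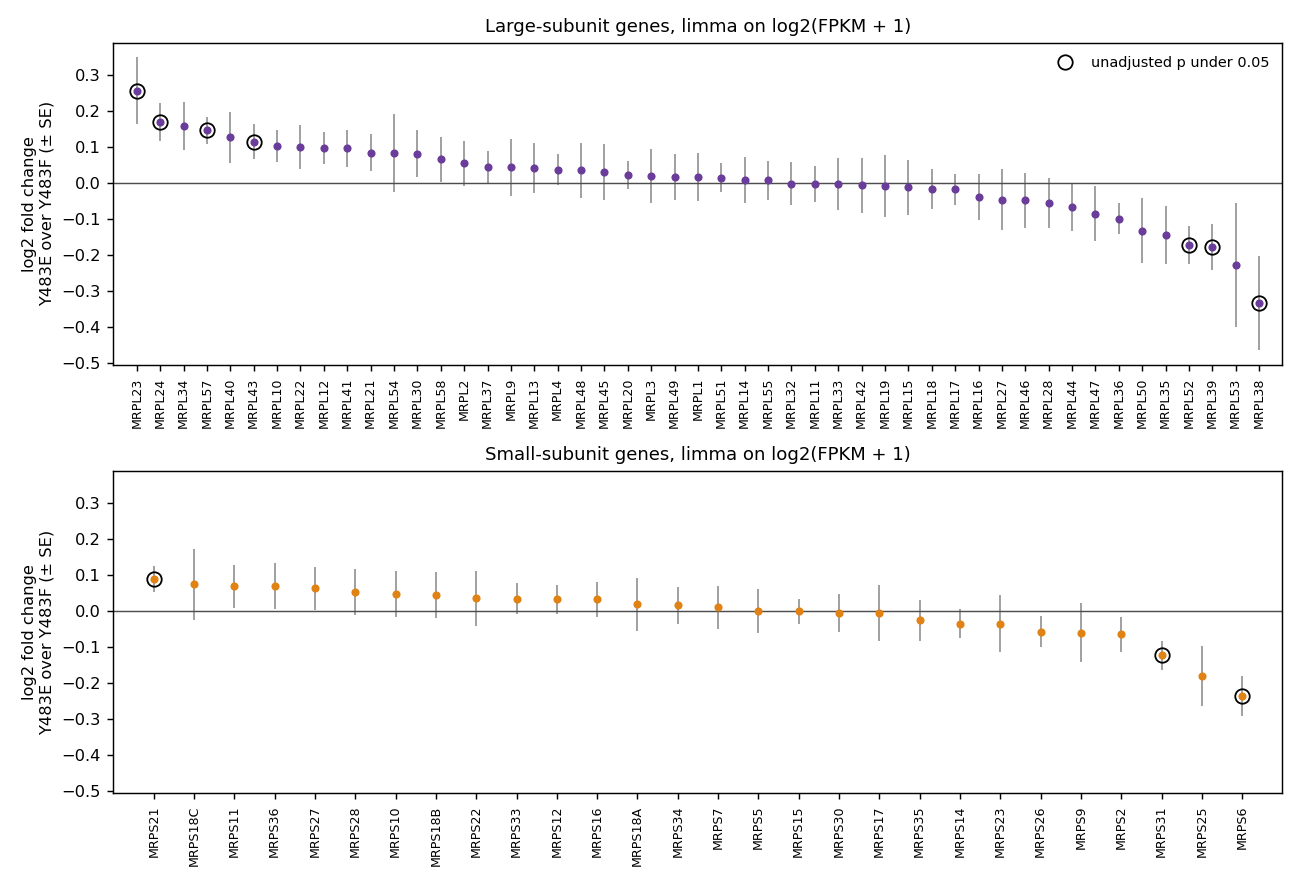
Log2 fold change of Y483E over Y483F on the log2(FPKM + 1) scale, with its standard error, for the 49 large-subunit genes (top) and the 28 tested small-subunit genes (bottom), ordered by value; rings mark the 10 with an unadjusted p under 0.05. Estimates ran from -0.33 for MRPL38 to 0.26 for MRPL23, and none passed the adjusted threshold.

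The genes with the smallest p-values on the lower side were MRPS6, MRPL52, MRPS31, MRPL39, MRPL38 and MRPL36. MRPS6, the counterpart of bacterial S6, had 6.439, 6.355 and 5.996 FPKM in Y483E and 7.99, 7.41 and 7.25 FPKM in Y483F. Every Y483E library was below every Y483F library (log2 fold change -0.23 ± 0.06, SE; limma adjusted p = 0.262). It is encoded at chr21:34073224-34143034 (GRCh38). MRPL39, a mitochondria-specific protein related to threonyl-tRNA synthetases, is on the same chromosome at chr21:25585656-25607517. It had 80.4, 73.5 and 70.7 FPKM in Y483E and 90.1, 83.5 and 80.6 FPKM in Y483F, without overlap between the lines (log2 fold change -0.18 ± 0.06, SE; limma adjusted p = 0.356). Of the 137 other chromosome 21 genes tested, 120 had an estimate below 0 and 17 above, with a median of -0.14. The part of the chromosome in the values of MRPS6 and MRPL39 was not tested.

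MRPL52, a large-subunit protein specific to mitochondria, had 25.3, 25.6 and 22.9 FPKM in Y483E and 27.3, 28.6 and 27.5 FPKM in Y483F (log2 fold change -0.17 ± 0.05, SE; limma adjusted p = 0.316). MRPL38 had 1.92, 1.80 and 1.16 FPKM in Y483E and 1.99, 2.49 and 2.39 FPKM in Y483F (log2 fold change -0.33 ± 0.13, SE; limma adjusted p = 0.377). In both genes the lines did not overlap, and the gap in MRPL38 was widest in the libraries numbered 5. MRPS31 (21.7 ± 0.116 FPKM in Y483E and 23.7 ± 0.829 FPKM in Y483F, SD, n = 3 each; limma adjusted p = 0.340) and MRPL36 (44.1 ± 1.93 FPKM in Y483E and 47.3 ± 0.292 FPKM in Y483F, SD, n = 3 each; limma adjusted p = 0.422) were also lower without overlap.

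On the higher side the smallest p-values belonged to MRPL57, MRPL24, MRPL23, MRPS21, MRPL43 and MRPL34. MRPL57, a small mitochondria-specific protein of the large subunit, is at chr13:21176645-21179084. It had 30.1, 30.3 and 29.8 FPKM in Y483E and 27.9, 26.6 and 26.7 FPKM in Y483F, without overlap (log2 fold change 0.15 ± 0.04, SE; limma adjusted p = 0.278). MRPL24, the counterpart of an early-binding bacterial protein, had 38.01, 39.98 and 40.75 FPKM in Y483E and 35.2, 37.1 and 33.2 FPKM in Y483F, again without overlap (log2 fold change 0.17 ± 0.05, SE; limma adjusted p = 0.322). MRPL23, at the exit of the peptide tunnel, had 16.9, 15.0 and 12.7 FPKM in Y483E and 12.01, 12.18 and 12.39 FPKM in Y483F. Its Y483E libraries spread widely, and the one numbered 5 was close to the Y483F libraries (log2 fold change 0.26 ± 0.09, SE; limma adjusted p = 0.358). MRPS21 averaged 69.1 ± 0.157 FPKM in Y483E and 64.9 ± 1.43 FPKM in Y483F (SD, n = 3 each; limma adjusted p = 0.399). MRPL43 (limma adjusted p = 0.402) and MRPL34 (0.408) had log2 fold changes of 0.12 and 0.16, and MRPL34 overlapped between the lines.

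MRPL57 and MRPS31 are both on chromosome 13, where 162 of the 231 other genes tested had an estimate below 0 and 69 above (median -0.05), so these 2 genes lay on opposite sides of 0. MRPS26 was the only one of the 78 on chromosome 20 (log2 fold change -0.06 ± 0.04, SE; limma adjusted p = 0.626), where the 348 other genes had a median of -0.09 with 277 below 0. No gene of the 78 was on chromosome 18.

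Counted over all tested genes, every Y483E library was above every Y483F library for 7 of 77 (MRPL10, MRPL12, MRPL23, MRPL24, MRPL43, MRPL57 and MRPS21), or 9.09%, against 9.72% of all genes. Every Y483E library was below for 6 (MRPL36, MRPL38, MRPL39, MRPL52, MRPS31 and MRPS6), or 7.79%, against 7.37%. Both shares were near those of all genes.

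The authors' deposited table of their own comparison lists 1652 genes, each with an unadjusted p under 0.05, and 126 of them (7.63%) have an adjusted p under 0.05. It lists 8 of the 78: MRPL23, MRPL24 and MRPL57 as higher and MRPS6, MRPL52, MRPL39, MRPL38 and MRPS25 as lower. None of the 8 has an adjusted p under 0.05 in the authors' deposited table, and the smallest there is 0.187, for MRPS6.

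**Figure D4:**
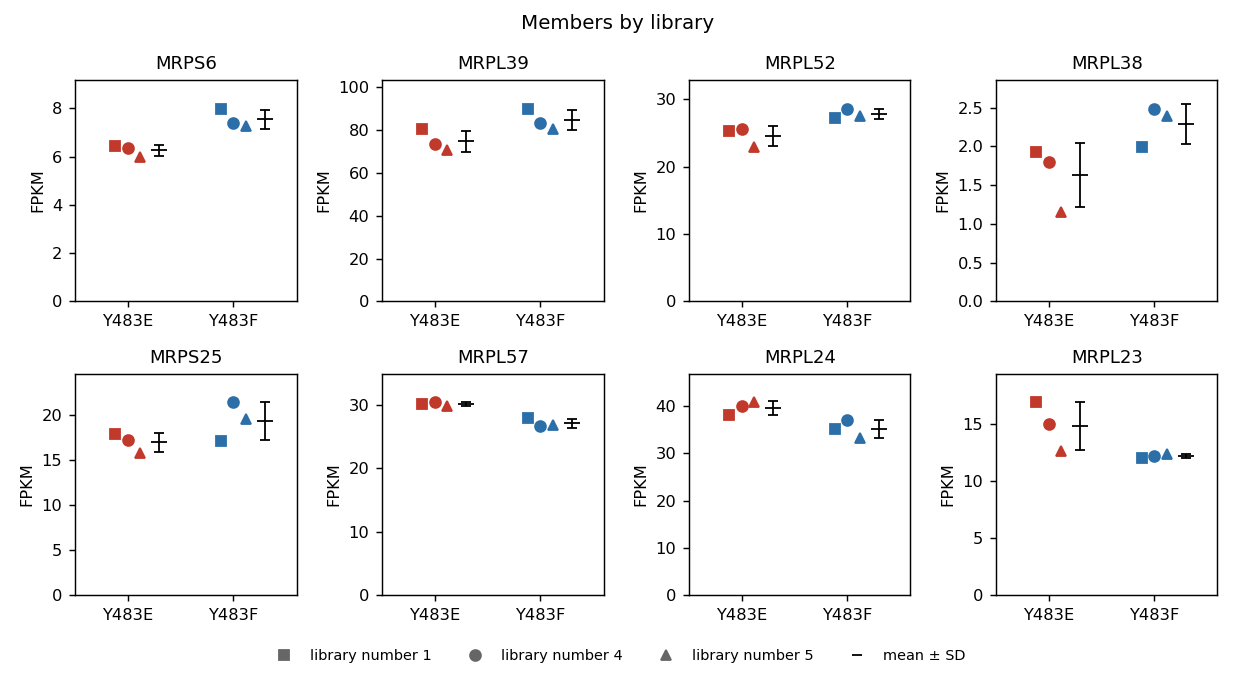
FPKM of 8 genes in each library, Y483E left of Y483F, with symbols for the library number (1, 4 and 5) and the mean ± SD of each line beside the points. These are the 8 genes that the authors' deposited table lists; the lines overlap in MRPS25 only, where the Y483F library numbered 1 (17.2 FPKM) lies among the Y483E libraries.

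Restricted to the libraries numbered 4 and 5, 2 per line, edgeR called 8 of the 77 genes (10.4%), where it called 15.0% of all 16308 genes. By edgeR the 3 higher in Y483E were MRPL22 (log2 fold change 0.19 ± 0.05, SE; adjusted p = 0.0222), MRPL24 (0.20 ± 0.06, SE; adjusted p = 0.0378) and MRPL57 (0.17 ± 0.05, SE; adjusted p = 0.0428), beside 7.07% of all genes called higher. The 5 lower were MRPS25, MRPL39, MRPL38, MRPL52 and MRPS6, beside 7.98% of all genes called lower. MRPS25, a mitochondria-specific small-subunit protein at chr3:15042460-15065335, had the smallest adjusted p. It had 17.2 and 15.8 FPKM in Y483E and 21.4 and 19.6 FPKM in Y483F in these libraries (edgeR log2 fold change -0.31 ± 0.05, SE; adjusted p = 0.00148), against 17.9 FPKM in Y483E and 17.2 FPKM in Y483F in those numbered 1. MRPL38 had the largest log2 fold change of the 8, -0.70 ± 0.18 (SE; edgeR adjusted p = 0.0154). In limma on the same 4 libraries none of the 77 passed, where 5.71% of all genes did. The difference between number 1 and numbers 4 and 5 was tested as an interaction in edgeR: none of the 77 passed, where 2.3% of 15992 genes did, and the smallest adjusted p was 0.0542. All these shares were at or under those of all genes.

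Set side by side by library number, most of these genes lay on the same side. This comparison was added after the values had been seen, and what the numbers mark is not stated. With the line as a term, 65 of the 77 genes were higher in the libraries numbered 1 than in those numbered 4 and 5 and 12 were lower, with a median log2 difference of 0.09, against 0.01 for all genes tested. The large and small subunits had the same median to 2 decimals, 0.09 each. At an unadjusted p under 0.05 there were 29 (27 higher and 2 lower), which is 37.7% of the genes against 18.8% of all. None passed the adjusted threshold in limma, where 0.0% of all genes did, or in edgeR, where 1.44% of 15992 did and the smallest adjusted p of the 77 was 0.0593. Both libraries numbered 1 were above all 4 others for 33 genes (42.9%), against 15.9% of all genes, and both were below for 1, MRPL55, against 9.78%.

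MRPL3, the counterpart of a bacterial protein near the peptidyl transferase centre, had the smallest p in that comparison. It had 78.2 FPKM in Y483E and 79.3 FPKM in Y483F in the libraries numbered 1, against 70.6 and 70.0 FPKM in Y483E and 66.8 and 69.9 FPKM in Y483F in those numbered 4 and 5 (log2 difference 0.18 ± 0.04, SE; limma adjusted p = 0.119). MRPL19 had 17.8 FPKM in both lines at number 1, against 14.9 and 15.5 FPKM in Y483E and 14.9 and 15.8 FPKM in Y483F at 4 and 5 (log2 difference 0.21 ± 0.04, SE; limma adjusted p = 0.119). MRPL28 had 57.2 FPKM in Y483E and 58.7 FPKM in Y483F at number 1, against 50.01 and 50.68 FPKM in Y483E and 51.7 and 53.8 FPKM in Y483F at 4 and 5 (log2 difference 0.17 ± 0.03, SE; limma adjusted p = 0.119). In all 3 genes both libraries numbered 1 were above those numbered 4 and 5. The lines also differed from each other at some numbers. MRPL3 at number 4 had 70.6 FPKM in Y483E against 66.8 FPKM in Y483F, and MRPL28 at number 5 had 50.68 against 53.8 FPKM. The 3 genes were named after their values had been seen, as those with the smallest p.

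The median deviation of the 77 genes from their own means, on the log2(FPKM + 1) scale, was 0.04, -0.02 and -0.01 in the Y483E libraries numbered 1, 4 and 5 and 0.07, -0.05 and -0.03 in the Y483F libraries numbered 1, 4 and 5. The cytosolic ribosomal protein genes went the other way in the comparison by number, with a median log2 difference of -0.07 (9 of 77 higher and 68 lower). Between the lines, those genes differed by a median of -0.02 at number 1 and 0.13 at numbers 4 and 5, whereas the mitochondrial ribosomal protein genes differed by -0.02 at number 1 and 0.03 at 4 and 5. Lists closer to these genes lay on the same side as them in the comparison by number: 23 of 27 assembly factors were higher (median log2 difference 0.06), as were 12 of 16 translation factors (0.08) and 8 of 8 nuclear regulators (0.07). No test was made of these differences between lists, and the shift is not shown to be particular to the mitochondrial ribosomal protein genes.

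**Figure D5:**
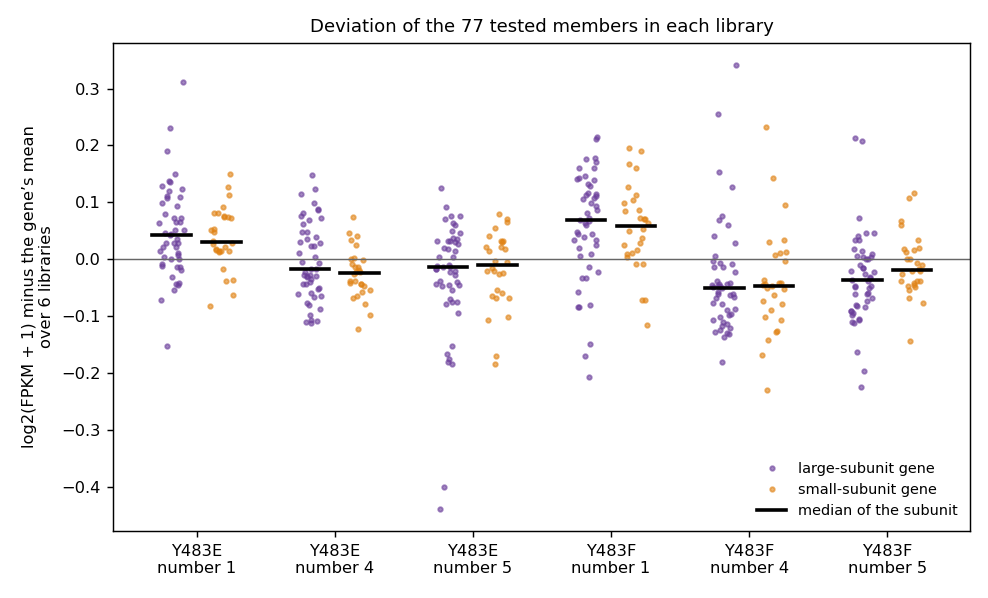
Deviation of each of the 77 tested genes from its mean over the 6 libraries, on the log2(FPKM + 1) scale, by library (Y483E left, Y483F right) and subunit; bars are the medians of the subunit. The medians of both subunits lie above 0 in the 2 libraries numbered 1 (0.04 and 0.03 in Y483E, 0.07 and 0.06 in Y483F) and below 0 in the other 4.

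The partners of these proteins were described from lists of the same pathway. Of 5 ribosomal proteins with other symbols, AURKAIP1, the small-subunit protein also known as an Aurora kinase partner, averaged 135 ± 6.55 FPKM in Y483E and 132 ± 6.60 FPKM in Y483F, and GADD45GIP1, a large-subunit protein, averaged 112 ± 1.43 FPKM in Y483E and 107 ± 4.90 FPKM in Y483F (SD, n = 3 each). Of 27 factors that assemble the ribosome or modify its RNA, none was called by limma, 13 estimates were above 0 and 14 below, and the median was 0.00. Of 16 translation factors, limma called none, with 8 estimates on each side of 0. TUFM, the elongation factor that brings aminoacyl-tRNA, averaged 220 ± 13.4 FPKM in Y483E and 217 ± 17.0 FPKM in Y483F (SD, n = 3 each), and OXA1L, which inserts proteins into the inner membrane, averaged 32.2 ± 0.393 FPKM in Y483E and 33.1 ± 0.458 FPKM in Y483F. ERAL1, an assembly factor that binds the small-subunit RNA, averaged 47.2 ± 1.20 FPKM in Y483E and 47.5 ± 2.32 FPKM in Y483F (SD, n = 3 each). Of 6 genes for mitochondrial transcription, limma called none. POLRMT, the RNA polymerase of the organelle, averaged 24.8 ± 0.639 FPKM in Y483E and 24.9 ± 0.669 FPKM in Y483F, and TFAM, which packages and helps transcribe mitochondrial DNA, averaged 41.6 ± 2.13 FPKM in Y483E and 43.8 ± 4.30 FPKM in Y483F (SD, n = 3 each). Of 8 tested nuclear regulators, limma called none, with 4 on each side. The 2 highest were MYC, at 33.5 ± 0.226 FPKM in Y483E and 38.0 ± 2.34 FPKM in Y483F, and YY1, at 28.1 ± 0.318 FPKM in Y483E and 27.9 ± 0.879 FPKM in Y483F (SD, n = 3 each).

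In edgeR on the libraries numbered 4 and 5, the assembly list had 4 of 27 called, near the 15.0% of all genes called in that fit. MTG1, a GTPase that acts on the large subunit during assembly, was lower in Y483E (log2 fold change -0.87 ± 0.10, SE; edgeR adjusted p = 6.6e-05). METTL17 and RPUSD4 were also lower (log2 fold changes -0.29 and -0.24), and GTPBP6 was higher (0.15). In the same edgeR fit 1 of 16 translation factors was called, the elongation factor GFM1 (log2 fold change -0.19 ± 0.05, SE; adjusted p = 0.0104), and none of the 6 genes for mitochondrial transcription. Also in this edgeR fit 4 of 9 regulators were called lower, where 7.98% of all genes were, among them GABPA, the ETS-family factor whose letters were searched for above, at -0.23 (adjusted p = 0.00181), and the coactivator PPRC1 at -0.23 (adjusted p = 0.000816). Of the 8 ribosomal protein genes called in that fit, MRPL52 and MRPL38 held ETS and YY1 letters, MRPL22 held NRF1 and YY1 letters, and MRPL57, MRPS6, MRPL39, MRPL24 and MRPS25 held none of the 3 motifs. Over all 69 promoters searched, 60.9% held at least 1 of the 3 motifs and 42.0% held ETS letters. A link between the letters and these calls was not tested. Mitochondrial transcripts were also read in these poly(A)-selected libraries: both mitochondrial ribosomal RNAs and all 13 mitochondrial messenger RNAs had limma estimates below 0, with medians of -0.47 and -0.69, and limma called none. In edgeR on the libraries numbered 4 and 5 both ribosomal RNAs and all 13 messenger RNAs were called lower (smallest adjusted p = 0.00111 and 0.000251), and edgeR with no filter, or without the Y483F library numbered 1, also called all of them lower. By number, the messenger RNAs had a median Y483E minus Y483F difference of 0.12 at number 1 and -1.11 at numbers 4 and 5.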

How the data were processed

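RNA of 6 HEK293 libraries was sequenced, 3 per line. HISAT2 2.0.5, StringTie 1.3.3b, featureCounts 1.5.0-p3, DESeq and DESeq2 are named in the submitters' processing notes, without their roles or a genome build. Gene coordinates matched GENCODE 29 (GRCh38) for 58690 of 58735 genes, and the listed lengths for 58724.

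The authors deposited FPKM per gene for each library, which divide reads by gene length and a library total. Their second deposited table holds raw counts for the genes it lists, a signal made of counts divided by 1 size factor per library, log2 fold changes and p-values. Within 0.01 of a whole number, 100% of FPKM values times length and library total gave whole reads, which equalled all 1652 deposited counts. Totals per library were 17204498 to 23284592 reads.

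The main test was limma 3.58.1 (R 4.3.3, two-sided, empirical Bayes with trend) on log2(FPKM + 1), over genes with at least 1 FPKM on average across libraries, adjusted by Benjamini-Hochberg and called at 0.05. Fold changes on this scale understate those of low genes. edgeR 4.0.16 (quasi-likelihood) and DESeq2 1.42.0 on the recovered reads were alternatives, together with other pseudocounts, filters and scalings, a block for the replicate number, weights per library, the libraries numbered 4 and 5 alone, and each library left out in turn. The scripts were tested on simulated counts. The genes and lists were chosen with earlier results of these data known. Genes named were the 6 with the smallest p in each direction, the highest and lowest of each subunit, the MRPS18 paralogues and other genes of special place, those on chromosomes 13, 18, 20 and 21, those called with the number as a term or in libraries 4 and 5, and in each pathway list the 2 highest and up to 2 called; other names, such as RPUSD4, were chosen after their values were seen and are marked so or listed by count. Main transcripts were the longest APPRIS principal transcripts of GENCODE 29. A planned comparison of the MRPS18 protein sequences was not made.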

Additional observations from a re-analysis of the deposited data

Results flagged for a closer look

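Reads were also assigned to genes outside the main measurement, the pseudogenes of these ribosomal protein genes. Of 75 pseudogenes listed under MRPL or MRPS symbols, 18 had a read, 4 had more than 3 reads in every library and 2 reached a mean of 1 FPKM. They were noted because their lowest count exceeds the 3 reads that a count of 0 allows. MRPL45P2, a transcribed pseudogene on chromosome 17 like MRPL45 itself, had at least 103 reads in every library, with 2.93 ± 0.443 FPKM in Y483E and 3.21 ± 0.489 FPKM in Y483F (SD, n = 3 each). MRPS31P4, a transcribed pseudogene on chromosome 13 like MRPS31, had at least 16 reads, with 1.21 ± 0.360 FPKM in Y483E and 1.73 ± 0.173 FPKM in Y483F (SD, n = 3 each). All the pseudogenes together had 152 to 254 reads per library, 0.136% to 0.211% of the reads of the 78 genes. MRPS31P5, also on chromosome 13, had 12 to 41 reads per library. Reads shared between a gene and its near-identical copy cannot be told apart here. The levels of MRPL45 and MRPS31 are therefore uncertain by an amount that these counts do not give.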

How the results depend on the processing

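The median log2 fold change of the genes, 0.0167 in the main fit, ranged from -0.0198 to 0.0531 over the 31 alternatives run, on both sides of 0, and moved in each by less than the SD between libraries (0.0486). The main count of genes called, 0, became 9 with array weights, 1 in edgeR with no filter and 8 in edgeR on libraries 4 and 5 alone; leaving out each library gave 0 to 0 in limma and 0 to 1 in edgeR. The large minus small median, 0.0027 in the main fit, was 0.0219 with array weights, 0.0230 in limma and 0.0239 in edgeR on libraries 4 and 5, and -0.0187 to 0.0228 in limma and -0.0206 to 0.0218 in edgeR leaving out each library (-0.0154 without Y483E replicate 2), so its sign was not stable. Outside the cytosolic ribosomal protein genes, the pathway lists had 0 genes called in the main fit. The lists held 5, 27, 16, 6, 9, 2 and 13 genes. Shares of all genes called in the same fit stand in brackets. This count became 24 with array weights (14.7%), 4 in limma (5.71%) and 24 in edgeR (15.0%) on libraries 4 and 5. It was 17 in edgeR with no filter (2.15%), 2 in edgeR with the library number as a term and 1 in DESeq2 (0.404%). Leaving out each library gave 0 to 0 in limma and 0 to 18 in edgeR, the 18 without Y483F replicate 1 (6.1%). All 13 mitochondrial messenger RNAs were in both counts of 24, in the 17 and in the 18, and made up most of each. Of the 77 cytosolic ribosomal protein genes tested, array weights called 18 higher and 2 lower, where 14.7% of all genes were called. On libraries 4 and 5, limma called 14 higher and 1 lower, and edgeR 43 higher and 2 lower. The shares of all genes called there were 5.71% and 15.0%. The median level became 48.1 per kilobase of the main transcript. The causes of these changes were not tested. Among 15 named genes, 434 alternative values held 0 changes of sign and 18 calls, in 10 genes. Most of these 15 were chosen for a small p or a call in these same data. A stable sign was therefore largely set by that choice and is no separate support. Other named genes, such as MRPS34, were not counted. The difference of libraries numbered 1 kept its sign (0.0599 to 0.1105 over 11 alternatives).

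Library numbers are shared between the lines. Same-number correlations of deviations were 0.056, 0.139 and -0.095 over all genes tested, and 0.003, 0.39 and -0.251 over the 77 genes. Correlations between different numbers ran from -0.263 to 0.206 over all genes tested and from -0.505 to 0.364 over the 77 genes. With 3 libraries per line, these values cannot decide whether the numbers pair samples. The libraries numbered 1 differed from the others in both lines for many genes, as described above. With the replicate block limma and edgeR called 0 of the genes, with medians of 0.0167 and 0.0092.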
